A study of Loxodonta africana with 12 samples.

Results

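A set of 9 genes known from neutrophils was followed in blood of the African elephant, Loxodonta africana, with and without ionising radiation. S100A8, S100A9, S100A12, AQP9, CSF3R, ALOX5, LTF, MPO and ELANE were taken by their gene symbol from the deposited tables, and each symbol had 1 row. They are 9 of 16406 genes, and all 9 passed the filter on low counts in each comparison. RNA sequencing of 12 blood libraries gave 3 libraries in each of 4 groups, namely blood given 2 Gy and sampled at 24 h, untreated blood at 24 h, blood given 2 Gy and sampled at 5 h, and untreated blood at 5 h. The labels name the source only as blood. Whether cells were cultured, and whether the 3 libraries of a group came from separate animals, they do not say. A p-value here thus sets a group difference against the scatter between these libraries and no more, and that scatter may be technical.

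Neutrophils, called heterophils in elephants, are the short-lived phagocytes that enter infected tissue first. In human neutrophils the small calcium-binding proteins S100A8, S100A9 and S100A12 fill the cytosol, CSF3R carries the survival signal of the growth factor G-CSF, AQP9 passes water and glycerol, and ALOX5 starts leukotriene synthesis. LTF, MPO and ELANE are stored in granules, and their transcripts are made mainly by precursors in the bone marrow, so that mature human blood neutrophils hold little of them. In humans S100A8, S100A9, S100A12, AQP9, CSF3R and ALOX5 are expressed in monocytes as well, which is why the members alone do not tell the 2 cell types apart.

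Other neutrophil and monocyte genes were examined to check the name of the set. Among 19 measured granule protein genes the median level was 2.34 FPKM (fragments counted per kilobase of gene model and scaled to library depth, averaged over the 12 libraries). Within the list levels ran from 0.149 FPKM for TCN1 to 388 FPKM for CTSC, and MMP9 and SLPI stood at 276 and 330 FPKM. Low values included 0.281 FPKM for the collagenase MMP8, 0.621 FPKM for LCN2 and 0.883 FPKM for CTSG. Among 17 receptors of attractants and surface receptors, many of which monocytes also carry, the median was 146 FPKM, with 953 FPKM for C5AR1, 648.5 FPKM for FPR1 and 1.18 FPKM for the chemokine receptor CXCR1. Among 13 monocyte and macrophage markers the median was 34.1 FPKM, from 0.284 FPKM for VSIG4 and 0.494 FPKM for MSR1 to 478 FPKM for CSF1R, the receptor of the macrophage growth factor, and 668 FPKM for CD68. Each list thus held both high and low genes, so these levels do not settle the name of the set. It is named for what its genes are known for, and neither the share of neutrophils in the blood nor the cell of origin of any transcript was measured.

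**Figure D1:**
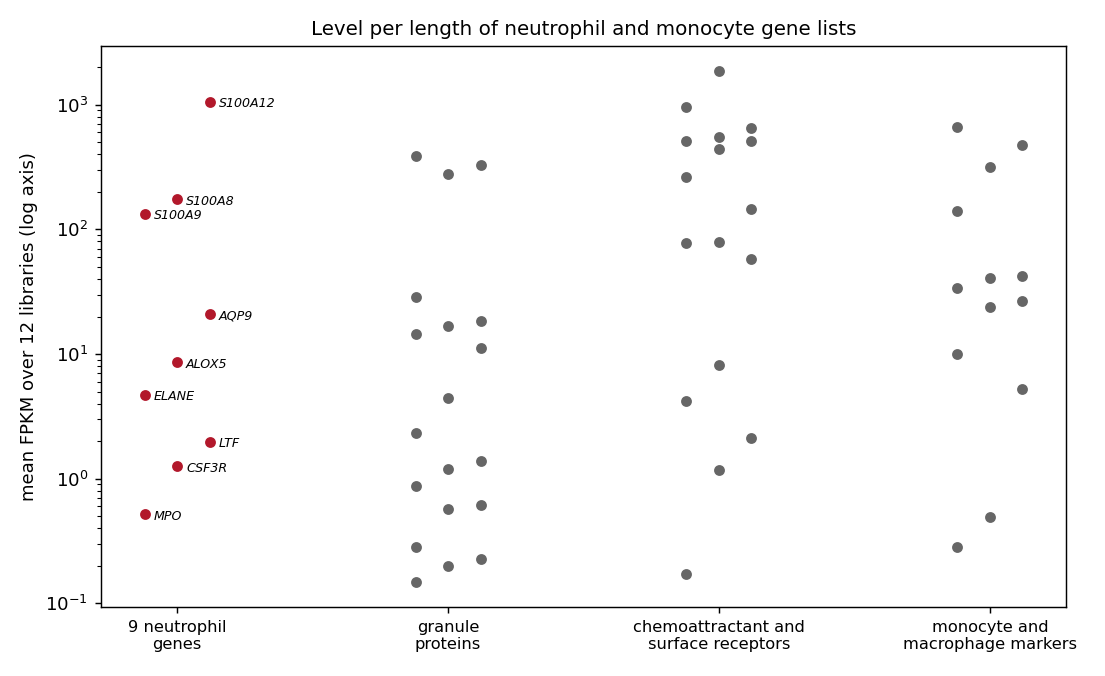
Mean FPKM over the 12 libraries, on a log axis, of the 9 neutrophil genes (red, named) and of the measured genes in 3 whole marker lists (grey), with 1 point per gene. The 9 genes run from 0.518 FPKM for MPO to 1059 FPKM for S100A12, the 19 granule protein genes have a median of 2.34 FPKM, the 17 receptors one of 146 FPKM, and the 13 monocyte and macrophage markers one of 34.1 FPKM.

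Library totals were 18022475 to 23805619 counts in irradiated and 22924260 to 37356501 in untreated libraries at 24 h, and 31129422 to 38138163 in irradiated and 31059389 to 35964159 in untreated libraries at 5 h. Levels per library are given in CPM (counts scaled to a common library size, with TMM factors over the 12 libraries), and log2 fold changes with their standard errors come from edgeR fits of the groups compared. A gene is called where its p, adjusted by Benjamini and Hochberg's method over all genes tested, was below 0.05. Replicate 1 of the irradiated libraries at 24 h stood apart in this set, with the 9 genes summing to 181 CPM against 421 and 400 CPM in replicates 2 and 3, so the members' results at 24 h are given with and without it. Since these same genes singled it out, the values without it are a description. The adjusted p values printed with them are no test of the members. Among untreated libraries at 24 h replicate 2 was lowest, at 114 CPM against 194 and 177 CPM in replicates 1 and 3. Across all genes tested, its deviations from the group mean correlated at 0.49 with those of irradiated replicate 1. It was kept where irradiated replicate 1 was left out, so those values drop the lowest library of the irradiated group alone. In the gene lists used here, irradiated replicate 1 at 24 h was not low throughout. In summed CPM it was highest of its group for granule proteins (1388 against 832.5 and 787.1) and receptors (8333 against 7231 and 7248). It was lowest for granulocyte transcription factors (516 against 699.6 and 1012) and leukotriene genes (266 against 297 and 305). Untreated replicate 2 was highest of its group for granule proteins (1092) and receptors (5528). In bulk blood RNA, fewer cells of a type and less RNA per cell cannot be told apart.

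Irradiation went with higher S100A9 at 5 h and higher AQP9 at 24 h, and these were the only calls among the 9 genes in the edgeR fits of treatment alone. On the same libraries DESeq2 called 2 members higher at 5 h, S100A8 and S100A9, and 4 higher at 24 h, the 3 S100 genes and AQP9. Over all genes tested DESeq2 called 3.42% at 5 h and 11.9% at 24 h, in either direction. In edgeR the called share at 24 h was 1 of 9 members, against 6.73% of 14373 genes tested, and at 5 h it was 1 of 9, against 1.60% of 12969. The members' median log2 fold change was 0.73 at 24 h, against 0.01 over all genes tested, and 0.16 at 5 h, against -0.00. In CPM, irradiated and untreated libraries did not overlap for 2 members at 24 h, AQP9 and MPO, against 25.4% of all genes tested, and for 3 at 5 h, S100A8, S100A9 and MPO, against 18.8%. Between the times, 5 members were lower at 24 h than at 5 h in irradiated blood, against 30.6% of all genes tested, and 6 in untreated blood, against 30.5%.

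**Figure D2:**
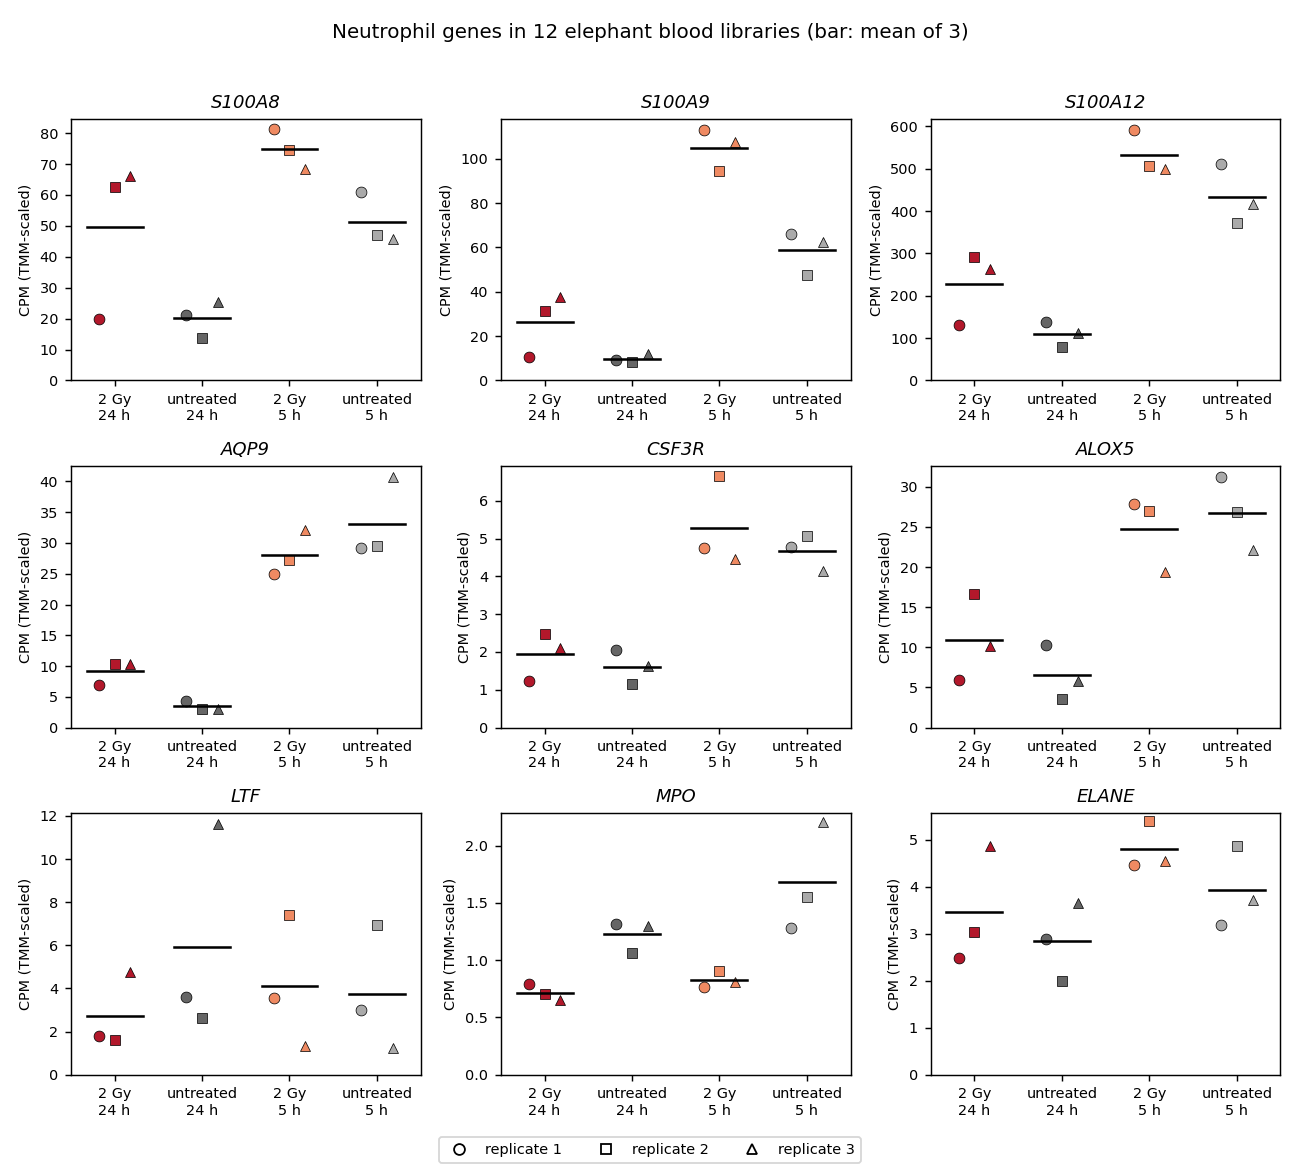
TMM-scaled CPM (vertical axes, each starting at 0) of the 9 neutrophil genes in the 12 libraries, by group, with symbols for the replicate and a bar at the mean of 3. At 24 h all 3 irradiated libraries lie above the untreated ones for AQP9 (6.99 to 10.3 against 2.99 to 4.25 CPM), while replicate 1 of the irradiated libraries lies among the untreated ones for S100A8, S100A9 (10.6 against up to 11.9 CPM) and S100A12.

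S100A8 and S100A9 pair into calprotectin, a protein that binds calcium and zinc and is released at sites of inflammation, and S100A12 is another protein of the same family that acts on receptors of inflammation in humans. The 3 genes were the most abundant of the set. They lie together on scaffold 33 of the assembly L_africana_Jul_2009, named per the file headers, within 42.0 kb, in the order S100A9, S100A12, S100A8, with 23.5 kb between the first pair and 15 kb between the second. The rows on both sides of the 3 were low: PGLYRP4, next to S100A9, had at most 17 counts in a library, and the unnamed gene beyond S100A8, ENSLAFG00000022077, had at most 16.

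S100A9 (ENSLAFG00000030986, scaffold 33, 1401491 to 1403766, plus strand, coding length 339 bases) had 10.6, 31.2 and 37.7 CPM in irradiated libraries at 24 h, against 9.16, 8.26 and 11.9 CPM in untreated ones. At 5 h it had 113, 94.4 and 108 CPM in irradiated libraries, against 66.2, 47.5 and 62.3 CPM in untreated ones. At 5 h all irradiated libraries lay above all untreated ones, and at 24 h replicate 1 of the irradiated libraries lay inside the untreated range. S100A9 rose 1.78-fold at 5 h (edgeR log2 fold change 0.83 ± 0.13 SE, adjusted p = 0.020). The call was lost without replicate 1 of the irradiated libraries (0.77, adjusted p = 0.113) and in 1 fit of all 12 libraries (0.84, adjusted p = 0.442). At 24 h the log2 fold change was 1.43 ± 0.42 (edgeR, adjusted p = 0.097), and without irradiated replicate 1 it was 1.80 (adjusted p = 0.0030).

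S100A8 (ENSLAFG00000028077, scaffold 33, 1443094 to 1443500, minus strand, coding length 270 bases) had 19.98, 62.7 and 66.0 CPM in irradiated libraries at 24 h, against 21.1, 13.7 and 25.4 CPM in untreated ones. At 5 h the values were 81.3, 74.6 and 68.5 CPM in irradiated libraries, against 61.1, 47.1 and 45.8 CPM in untreated ones. The groups did not overlap at 5 h, and at 24 h they overlapped through irradiated replicate 1 alone. The difference was 0.53 ± 0.12 on the log2 scale at 5 h (edgeR, adjusted p = 0.095), which passed without untreated replicate 1 (0.67, adjusted p = 0.033). At 24 h it was 1.29 ± 0.44 (edgeR, adjusted p = 0.144), and 1.67 without irradiated replicate 1 (adjusted p = 0.012).

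S100A12 (ENSLAFG00000000593, scaffold 33, 1427266 to 1428062, minus strand, coding length 288 bases) had 131, 292 and 263 CPM in irradiated libraries at 24 h, against 139, 78.9 and 113 CPM in untreated ones. The values at 5 h were 592, 506 and 498 CPM in irradiated libraries, against 511, 371 and 416 CPM in untreated ones. The groups overlapped at both times. The log2 differences were 1.04 ± 0.33 at 24 h (edgeR, adjusted p = 0.122) and 0.29 ± 0.13 at 5 h (adjusted p = 0.395). Without irradiated replicate 1 the difference at 24 h was 1.32 (adjusted p = 0.025).

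In edgeR fits of the 24 h libraries the 3 S100 genes were called only where irradiated replicate 1 was left out. Without that library, which was singled out by its low values of these genes, 4 of the 9 members were called higher at 24 h, the 3 S100 genes and AQP9. That fit called 7.19% of 14763 genes in either direction, with 308 called higher. Leaving out a library for its low values raises these differences by construction, so this count is no test. With that library kept, DESeq2 called S100A8, S100A9 and S100A12 higher at 24 h (adjusted p = 0.018, 0.0051 and 0.014), and so did the edgeR fit of all 12 libraries (adjusted p = 0.032, 0.017 and 0.025).

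Within a library the S100 genes did not keep a constant ratio between the times. The FPKM of S100A8 over that of S100A9 was 2.36, 2.52 and 2.20 in irradiated and 2.90, 2.08 and 2.68 in untreated libraries at 24 h, and 0.904, 0.992 and 0.798 in irradiated and 1.16, 1.24 and 0.923 in untreated libraries at 5 h. Every library of 24 h lay above every library of 5 h. S100A12 over S100A9 was 8.22 to 14.5 in irradiated and 11.1 to 17.9 in untreated libraries at 24 h, and 5.45 to 6.30 in irradiated and 7.87 to 9.19 in untreated libraries at 5 h. At 5 h this ratio lay lower in all irradiated than in all untreated libraries, and at 24 h the groups overlapped. S100A12 over S100A8 was 3.74 to 6.18 across the 6 libraries of 24 h and 6.35 to 8.52 across those of 5 h.

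**Figure D3:**
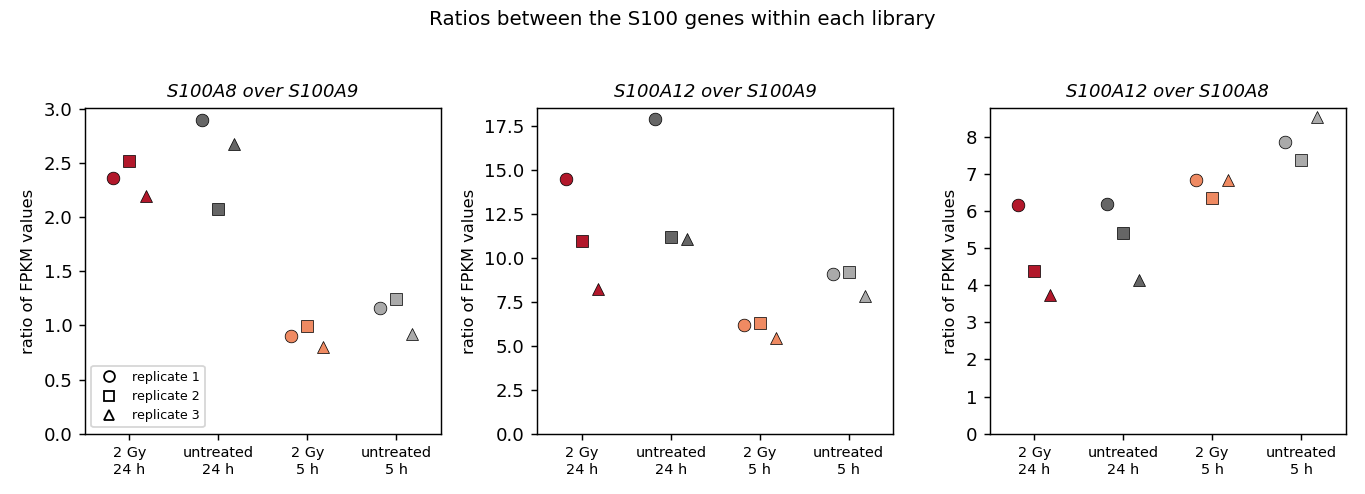
Ratios of the deposited FPKM values between S100A8, S100A9 and S100A12 within each of the 12 libraries, by group, with symbols for the replicate and axes that start at 0. S100A8 over S100A9 lies between 2.08 and 2.90 at 24 h and between 0.798 and 1.24 at 5 h.

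AQP9 is an aquaglyceroporin, a membrane channel for water, glycerol and other small uncharged solutes. AQP9 (ENSLAFG00000012160, scaffold 59, 3941370 to 3954410, plus strand, coding length 798 bases) had 6.99, 10.3 and 10.3 CPM in irradiated libraries at 24 h, against 4.25, 2.99 and 3.06 CPM in untreated ones. At 5 h it had 24.9, 27.2 and 32.0 CPM in irradiated libraries, against 29.2, 29.5 and 40.7 CPM in untreated ones. All irradiated libraries lay above all untreated ones at 24 h, and the groups overlapped at 5 h. AQP9 rose 2.66-fold at 24 h (edgeR log2 fold change 1.41 ± 0.23, adjusted p = 0.016). The call was lost without irradiated replicate 2 (1.30, adjusted p = 0.073) or untreated replicate 3 (1.32, adjusted p = 0.054), and was kept without irradiated replicate 1 (1.57, adjusted p = 0.0094). At 5 h the log2 difference was -0.25 ± 0.15 (edgeR, adjusted p = 0.554).

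AQP9 was also the only member whose response to irradiation differed between the times. The irradiation effect at 24 h minus that at 5 h was 1.67 ± 0.28 on the log2 scale (edgeR interaction over 12 libraries, adjusted p = 0.012), where 0.882% of 15200 genes were called, 19 of them with a positive difference. It kept an adjusted p below 0.05 in all 12 fits that left out 1 library, with values from 1.49 to 1.85. For the other 8 members the difference ran from -1.26 ± 1.05 for LTF to 0.86 ± 0.53 for ALOX5, and none was called.

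**Figure D4:**
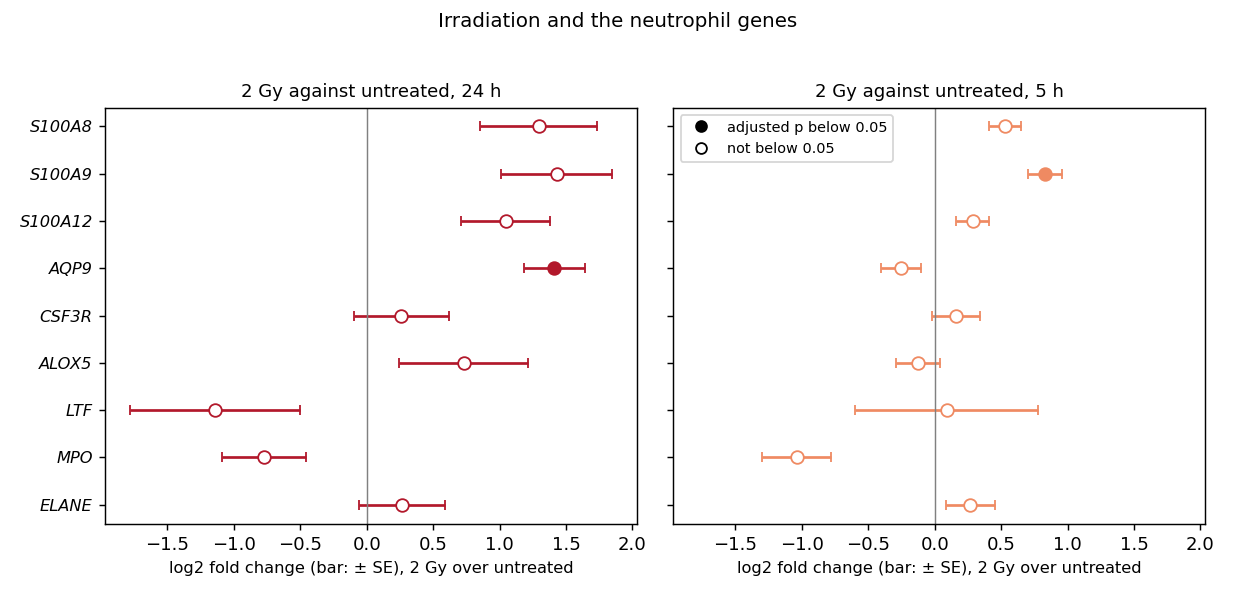
Log2 fold changes of irradiated over untreated libraries (horizontal axis, edgeR, bars ± SE) of the 9 neutrophil genes at 24 h (left) and 5 h (right), from 3 libraries per group. Filled points have an adjusted p below 0.05, which holds for AQP9 at 24 h (1.41) and S100A9 at 5 h (0.83).

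CSF3R is the receptor through which G-CSF drives the production and release of neutrophils. CSF3R (ENSLAFG00000014447, scaffold 34, 15531190 to 15545389, minus strand, coding length 2523 bases) had 1.24, 2.47 and 2.11 CPM in irradiated libraries at 24 h, against 2.04, 1.15 and 1.62 CPM in untreated ones, from 33 to 71 counts per library. The values at 5 h were 4.75, 6.65 and 4.45 CPM in irradiated libraries, against 4.78, 5.06 and 4.15 CPM in untreated ones. Irradiated and untreated libraries overlapped at both times. The log2 difference was 0.26 ± 0.36 at 24 h (edgeR, adjusted p = 0.721; 0.50 without irradiated replicate 1, adjusted p = 0.431) and 0.16 ± 0.18 at 5 h (adjusted p = 0.770).

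ALOX5, the 5-lipoxygenase, turns arachidonic acid into the precursor of leukotriene B4, an attractant of neutrophils. ALOX5 (ENSLAFG00000012188, scaffold 10, 65143445 to 65210895, plus strand, coding length 1875 bases) had 5.94, 16.6 and 10.2 CPM in irradiated libraries at 24 h, against 10.2, 3.54 and 5.78 CPM in untreated ones. At 5 h it had 27.8, 27.0 and 19.4 CPM in irradiated libraries, against 31.2, 26.8 and 22.1 CPM in untreated ones. The groups overlapped at both times, and the spread at 24 h was wide within each group. The log2 difference was 0.73 ± 0.48 at 24 h (edgeR, adjusted p = 0.443; 1.03 without irradiated replicate 1, adjusted p = 0.213) and -0.12 ± 0.17 at 5 h (adjusted p = 0.814).

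The genes of the 3 granule proteins were at the low end of the set. MPO, the peroxidase that makes hypochlorous acid in primary granules (ENSLAFG00000002594, scaffold 31, 10577382 to 10587146, plus strand, coding length 2148 bases), had 21, 16 and 13 counts in irradiated libraries at 24 h, against 40, 37 and 57 in untreated ones. The values at 5 h were 24, 24 and 26 counts in irradiated libraries, against 34, 49 and 67 in untreated ones. In CPM the irradiated libraries lay below the untreated ones at both times, at 0.653 to 0.789 against 1.06 to 1.32 at 24 h and at 0.765 to 0.907 against 1.28 to 2.21 at 5 h. Neither difference was called, at -0.77 ± 0.31 on the log2 scale at 24 h (edgeR, adjusted p = 0.213; -0.86 without irradiated replicate 1) and -1.04 ± 0.26 at 5 h (adjusted p = 0.127).

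LTF, the iron-binding lactoferrin of secondary granules (ENSLAFG00000007855, scaffold 12, 21054757 to 21082975, plus strand, coding length 2127 bases), had 48, 37 and 95 counts in irradiated libraries at 24 h, against 109, 91 and 509 in untreated ones. At 5 h it had 112, 196 and 43 counts in irradiated libraries, against 80, 220 and 37 in untreated ones. At 24 h untreated replicate 3 stood far above the other 5 libraries. At 5 h the libraries differed more by their replicate number than by treatment, with number 2 high and number 3 low in both groups. The log2 difference was -1.14 ± 0.64 at 24 h (edgeR, adjusted p = 0.359), which came to -0.22 without untreated replicate 3 and to -0.93 without irradiated replicate 1, and 0.09 ± 0.69 at 5 h (adjusted p = 0.977).

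ELANE, the neutrophil elastase of primary granules (ENSLAFG00000026354, scaffold 153, 577242 to 579636, plus strand, coding length 783 bases), had 66, 69 and 97 counts in irradiated libraries at 24 h, against 88, 69 and 160 in untreated ones. The values at 5 h were 140, 143 and 146 counts in irradiated libraries, against 85, 154 and 113 in untreated ones. In CPM it ranged from 2.48 to 4.87 in irradiated and from 1.99 to 3.65 in untreated libraries at 24 h, with overlap at both times. The log2 difference was 0.27 at both times, with SEs of 0.32 at 24 h and 0.18 at 5 h (edgeR, adjusted p = 0.680 at 24 h and 0.618 at 5 h). Without irradiated replicate 1 the difference at 24 h was 0.45 (adjusted p = 0.449).

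Taking the replicate number as a block changed the calls at 5 h. Libraries of the same number deviated together there, so irradiated and untreated libraries could be set side by side within a number, and 20.5% of all genes tested were then called. Among the members 5 of 9 were called: S100A9 (0.84 ± 0.05, edgeR with the replicate block, adjusted p = 6.0e-09), S100A8 (0.54 ± 0.05, adjusted p = 2.3e-06) and S100A12 (0.29 ± 0.04, adjusted p = 1.6e-04) were higher in irradiated libraries. MPO (-1.03 ± 0.24, edgeR with the block, adjusted p = 0.0061) and AQP9 (-0.25 ± 0.06, adjusted p = 0.0087) were lower. CSF3R (0.16 ± 0.12), ALOX5 (-0.13 ± 0.06), LTF (0.13 ± 0.13) and ELANE (0.28 ± 0.12) were not called with the block either.

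Time was compared within each treatment, on counts that were deposited in a separate table for each time. In irradiated blood S100A9, S100A12, AQP9, CSF3R and ALOX5 fell at 24 h relative to 5 h, 5 of 9 members, against 30.6% of 14028 genes called lower. In untreated blood the same 5 genes and S100A8 fell, 6 of 9, against 30.5% of 13445 genes. The members' median log2 fold change was -1.09 in irradiated blood, against 0.10 over all genes tested, and -1.47 in untreated blood, against 0.11.

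AQP9 fell furthest in untreated blood, by 3.20 ± 0.21 on the log2 scale (edgeR, adjusted p = 6.3e-06), a 9.20-fold lower level at 24 h than at 5 h. In irradiated blood AQP9 fell by 1.52 ± 0.17 (edgeR, adjusted p = 1.2e-04), or 2.87-fold. S100A9 fell by 1.90 ± 0.37 in irradiated blood (edgeR, adjusted p = 0.0021) and fell by 2.51 ± 0.16 in untreated blood (adjusted p = 6.6e-06). In CPM the libraries of 24 h and 5 h did not overlap for 6 of 9 members in each treatment, the 3 S100 genes, AQP9, CSF3R and ALOX5, close to the share over all genes tested, 70.6% in irradiated and 67.9% in untreated blood.

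S100A12 fell by 1.13 ± 0.26 on the log2 scale in irradiated blood (edgeR, adjusted p = 0.0049) and by 1.89 ± 0.23 in untreated blood (adjusted p = 1.5e-04). S100A8 fell by 1.28 ± 0.22 in untreated blood (edgeR, adjusted p = 0.0010), while in irradiated blood its difference was -0.51 ± 0.36 (adjusted p = 0.244). CSF3R, the growth factor receptor, and ALOX5, the lipoxygenase, fell in both treatments. CSF3R fell by 1.36 ± 0.28 in irradiated (edgeR, adjusted p = 0.0029) and fell by 1.47 ± 0.25 in untreated blood (adjusted p = 0.0011), and ALOX5 by 1.09 ± 0.32 in irradiated (adjusted p = 0.016) and by 1.96 ± 0.35 in untreated blood (adjusted p = 0.0014). The 2 time comparisons share no library, but the treatments differ in each member's change only as far as the interaction above tested it, which called AQP9 alone.

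No granule gene of the set was called between the times. In irradiated blood the log2 differences of 24 h minus 5 h were -0.51 ± 0.60 for LTF, -0.10 ± 0.25 for MPO and -0.39 ± 0.25 for ELANE (edgeR, adjusted p = 0.480, 0.764 and 0.198). In untreated blood they were 0.72 ± 0.67 for LTF, -0.38 ± 0.29 for MPO and -0.40 ± 0.27 for ELANE (edgeR, adjusted p = 0.364, 0.276 and 0.215). ELANE passed in irradiated blood without irradiated replicate 3 of 24 h (-0.78, adjusted p = 0.010).

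**Figure D5:**
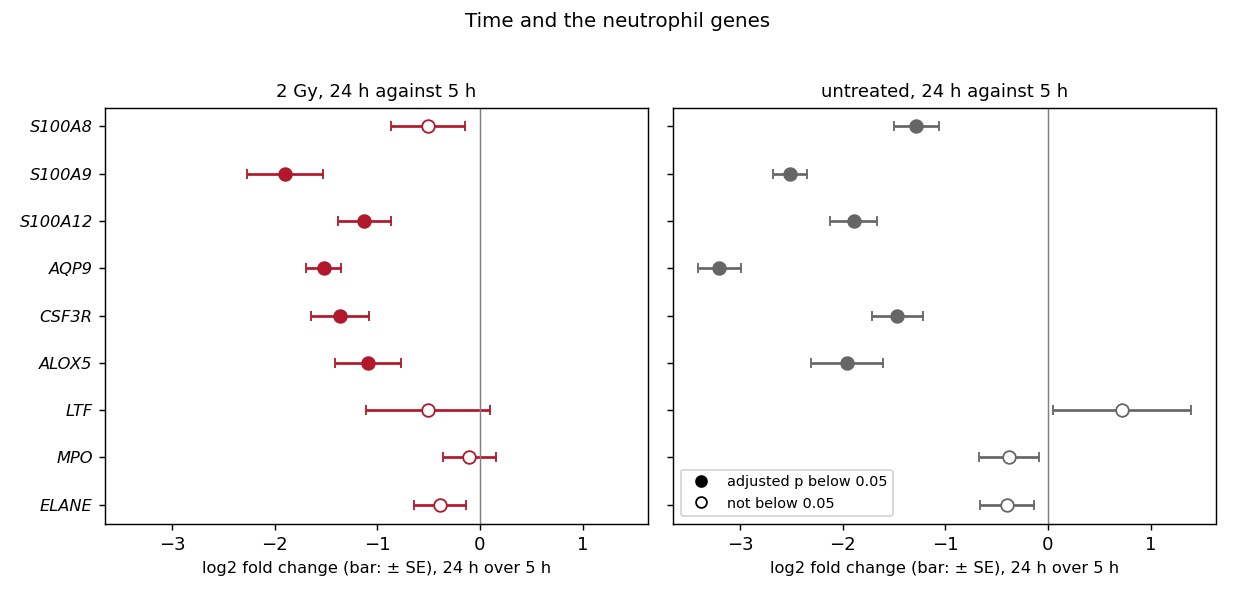
Log2 fold changes of 24 h over 5 h (horizontal axis, edgeR, bars ± SE) of the 9 neutrophil genes in irradiated (left) and untreated blood (right), from 3 libraries per group. Filled points have an adjusted p below 0.05: 5 genes in irradiated and 6 in untreated blood, with AQP9 at -1.52 in irradiated and -3.20 in untreated blood.

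Per length, S100A12 stood first in every group, at 912 ± 364 FPKM in irradiated and 469 ± 166 in untreated libraries at 24 h, and at 1561 ± 150 in irradiated and 1293 ± 202 in untreated libraries at 5 h (SD, n = 3 each). S100A8 and S100A9 followed. At 24 h S100A8 was the higher of the pair in each of the 6 libraries, at 210 ± 111 FPKM against 89.4 ± 47.5 for S100A9 in irradiated and at 90.3 ± 28.9 against 34.8 ± 6.88 in untreated libraries. At 5 h S100A9 was the higher in each irradiated library, at 262 ± 22.5 FPKM against 234 ± 19.96 for S100A8. In untreated libraries at 5 h the order was mixed, with S100A8 over S100A9 at 1.16, 1.24 and 0.923. The means there were 164 ± 26.4 FPKM for S100A8 and 149 ± 22.9 for S100A9. The ranges of the pair overlapped in all groups but the untreated libraries at 24 h.

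AQP9 came next in all groups, at 13.2 ± 2.98 FPKM in irradiated and 5.26 ± 1.56 in untreated libraries at 24 h, and at 29.7 ± 3.81 in irradiated and 35.7 ± 6.57 in untreated libraries at 5 h. ALOX5 and ELANE followed AQP9, with 6.71 ± 3.60 FPKM of ALOX5 and 5.02 ± 1.70 of ELANE in irradiated and 4.32 ± 2.62 of ALOX5 and 4.41 ± 1.37 of ELANE in untreated libraries at 24 h, within each other's spread. AQP9 and ALOX5 also overlapped at 24 h, with up to 10.6 FPKM of ALOX5 in irradiated and 7.23 FPKM in untreated libraries. At 5 h ALOX5 stood above ELANE, at 11.1 ± 2.10 FPKM against 5.19 ± 0.59 in irradiated libraries and at 12.3 ± 2.14 against 4.33 ± 1.02 in untreated ones. CSF3R and LTF lay within each other's spread at 5 h, at 1.77 ± 0.41 FPKM of CSF3R and 1.64 ± 1.23 of LTF in irradiated and 1.59 ± 0.18 of CSF3R and 1.52 ± 1.22 of LTF in untreated libraries. At 24 h LTF stood at 1.45 ± 0.89 FPKM and CSF3R at 0.882 ± 0.314 in irradiated libraries, with overlap, and LTF at 3.34 ± 2.69 and CSF3R at 0.780 ± 0.279 in untreated libraries, without overlap. MPO was last, at 0.380 ± 0.039 FPKM in irradiated and 0.694 ± 0.127 in untreated libraries at 24 h, and at 0.326 ± 0.030 in irradiated and 0.672 ± 0.184 in untreated libraries at 5 h.

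The 8 lists of other neutrophil genes and of the members' pathways were chosen with earlier results of these data known. The shares called in them are thus a description. Over these lists edgeR called 12 of 93 genes at 24 h, or 12.9% against 6.73% of all genes tested, and 4 of 89 at 5 h, or 4.49% against 1.60%. DESeq2 called 24 of the 93, against 11.9% of all genes tested, and 9 of the 89, against 3.42%. Among granule proteins 2 of 16 tested were called at 24 h, with CHI3L1 at 0.62 ± 0.10 (edgeR, adjusted p = 0.015) and the surface antigen CD177 at -2.43 ± 0.56 (adjusted p = 0.047). At 5 h 1 of 14 was called, ANXA3 at -0.80 ± 0.14 (edgeR, adjusted p = 0.042). CD177 was near the floor, at a mean of 0.230 CPM in irradiated and 1.22 CPM in untreated libraries at 24 h. Of 17 receptors of attractants and surface receptors 3 rose at 24 h, the integrin subunit ITGAM by 1.33 ± 0.11 (edgeR, adjusted p = 0.0014), FPR1, a receptor of bacterial formyl peptides, by 0.73 ± 0.16 (adjusted p = 0.045), and PTAFR, the receptor of platelet-activating factor, by 0.47 ± 0.10 (adjusted p = 0.036). DESeq2 called 8 of the 17, against 11.9% of all genes tested. At 5 h ITGAM was the 1 of 16 called, at 0.84 ± 0.12 (edgeR, adjusted p = 0.015).

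In the leukotriene and lipoxygenase list ALOX15B, a 15-lipoxygenase, rose by 2.47 ± 0.34 on the log2 scale at 24 h (edgeR, adjusted p = 0.0091) and by 2.11 ± 0.16 at 5 h (adjusted p = 5.3e-04). MGST3, the other gene called among 10 tested at 24 h, fell by 0.84 ± 0.11 (edgeR, adjusted p = 0.0073). In the S100 list, which holds the family's other members and receptors, none of 14 tested was called higher at either time, while S100A16 (-2.60 ± 0.42), S100A10 (-0.47 ± 0.09) and S100PBP, a binding partner (-0.54 ± 0.08), fell at 24 h (edgeR, adjusted p = 0.015, 0.025 and 0.014) and S100A4 (-0.37 ± 0.07) fell at 5 h (adjusted p = 0.037). S100A16 was low, at a mean of 0.362 CPM in irradiated and 2.17 CPM in untreated libraries at 24 h. Among 16 genes of G-CSF receptor signalling 1 fell at 24 h, the kinase JAK1 by 0.55 ± 0.09 (edgeR, adjusted p = 0.014), and 0 were called at 5 h. Of 12 granulocyte transcription factors 1 rose at 24 h, RUNX1 by 0.65 ± 0.11 (edgeR, adjusted p = 0.018), and 0 at 5 h. Of the 7 NADPH oxidase genes, whose complex makes superoxide in phagocytes, 0 were called at either time. The 1 aquaporin tested beside AQP9 was called at neither time. Without irradiated replicate 1 the lists at 24 h had 2 of 17 granule proteins, 2 of 17 receptors, 1 of 7 oxidase genes, 2 of 11 leukotriene genes and 2 of 12 transcription factors called higher, and 2 of 11 leukotriene genes, 3 of 14 of the S100 list and 1 of 16 of G-CSF receptor signalling called lower. That fit called 7.19% of all genes tested, in either direction.

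The lists' median log2 fold changes at 24 h were 0.47 for receptors, 0.36 for granulocyte transcription factors, 0.35 for the oxidase, 0.18 for leukotriene genes, 0.12 for G-CSF receptor signalling, 0.08 for granule proteins and 0.03 for the S100 list, against 0.01 over all genes tested. At 5 h they ran from -0.19 for leukotriene genes to 0.12 for granulocyte transcription factors, against -0.00. Where edgeR called 0 genes of a list, the oxidase had 4 of 7 at an unadjusted p below 0.05 at 24 h, with 3 called by DESeq2, and 1 of 7 at 5 h, with 0 by DESeq2. At 5 h granulocyte transcription factors had 4 of 12 at an unadjusted p below 0.05 and 1 by DESeq2, G-CSF receptor signalling 0 and 0, and the aquaporin 1 and 1, while at 24 h the aquaporin had 0 and 0.

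With the replicate block at 5 h these counts became larger. Over all 12969 genes tested the block called 20.5%, 1369 higher and 1286 lower. Granule proteins were then lower for 3 of 14 and higher for 0, receptors higher for 3 and lower for 3 of 16, NADPH oxidase genes higher for 2 and lower for 2 of 7, leukotriene and lipoxygenase genes higher for 1 and lower for 4 of 9, and the S100 list higher for 1 and lower for 4 of 14. G-CSF receptor signalling was higher for 4 and lower for 1 of 16, granulocyte transcription factors higher for 5 and lower for 0 of 12, and the 1 aquaporin was called higher.

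ITGAM and ALOX15B at 24 h, ALOX15B at 5 h and MGST3 kept their calls in all 6 fits that left out 1 library. ITGAM at 5 h lost its call without irradiated replicate 1 or 2 or untreated replicate 2 (edgeR, adjusted p up to 0.086), and S100A16 without irradiated replicate 2 or untreated replicate 2 (up to 0.070). ANXA3 passed only without irradiated replicate 3, at an adjusted p of 0.049. S100A4 and CD177 passed in none of the 6 fits, at adjusted p values up to 0.195 and 0.158. The others passed in 1 or 2 of 6: CHI3L1 (adjusted p up to 0.085), FPR1 (0.154), PTAFR (0.186), S100A10 (0.115), S100PBP (0.068), JAK1 (0.099) and RUNX1 (0.077).

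Between the times the share over all genes was 35.3% called higher and 30.6% lower in irradiated blood, and 32.6% higher and 30.5% lower in untreated blood. Among 17 tested receptors 7 fell and 5 rose at 24 h in irradiated blood, and among 16 tested 9 fell and 4 rose in untreated blood. FPR1 fell by 1.504 ± 0.12 in irradiated (edgeR, adjusted p = 2.2e-05) and fell by 2.17 ± 0.17 in untreated blood (adjusted p = 1.7e-05), and PTAFR by 1.46 ± 0.11 in irradiated (adjusted p = 1.4e-05) and by 1.92 ± 0.11 in untreated blood (adjusted p = 4.6e-06). CXCR2, the receptor of neutrophil-attracting chemokines, fell by 1.85 ± 0.21 in irradiated (edgeR, adjusted p = 1.2e-04) and fell by 2.98 ± 0.18 in untreated blood (adjusted p = 4.9e-06). The oxidase went the other way for its main subunit: CYBB rose by 2.08 ± 0.17 in irradiated (edgeR, adjusted p = 2.5e-05) and by 1.85 ± 0.18 in untreated blood (adjusted p = 4.8e-05), and 4 of 7 oxidase genes rose and 1 fell in irradiated blood, against 3 and 3 in untreated blood. Granule proteins were called lower for 5 and higher for 2 of 16 tested in irradiated blood, and lower for 6 and higher for 2 of 14 in untreated blood. Among them MMP9, the gelatinase, fell by 1.76 ± 0.38 in irradiated (edgeR, adjusted p = 0.0034) and fell by 3.01 ± 0.41 in untreated blood (adjusted p = 3.0e-04), while ANXA3, an annexin, rose by 2.27 ± 0.35 in irradiated (adjusted p = 6.1e-04) and by 1.71 ± 0.31 in untreated blood (adjusted p = 0.0014).

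Of the leukotriene and lipoxygenase genes 3 fell and 2 rose of 9 tested in each treatment, and COTL1, a binding partner of 5-lipoxygenase, fell by 1.49 ± 0.13 in irradiated (edgeR, adjusted p = 2.9e-05) and fell by 1.71 ± 0.12 in untreated blood (adjusted p = 9.8e-06). Of the S100 list 4 fell and 4 rose in irradiated blood, and 6 fell and 4 rose in untreated blood, of 14 tested in each, with S100A10 falling furthest among the S100 genes outside the set, by 3.10 ± 0.10 in irradiated (edgeR, adjusted p = 1.1e-06) and by 2.74 ± 0.09 in untreated blood (adjusted p = 8.5e-07). Of 16 genes of G-CSF receptor signalling 7 fell and 4 rose in irradiated and 8 fell and 4 rose in untreated blood. Of 12 granulocyte transcription factors 4 fell and 3 rose in irradiated and 5 fell and 3 rose in untreated blood, among them SPI1, a regulator of myeloid development, which fell by 1.23 ± 0.11 in irradiated (edgeR, adjusted p = 3.5e-05) and fell by 1.68 ± 0.13 in untreated blood (adjusted p = 1.3e-05). The 1 aquaporin tested beside AQP9 was called lower in irradiated blood and was not called in untreated blood.

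The genes whose profile over the 12 libraries lay closest to each member's were found by the root mean square difference of log2 CPM, each gene centred on its own mean, among 10387 genes with a symbol and a mean of at least 1 CPM. For AQP9 they were C6orf141 (0.316), STAB1 (0.351) and PCDHGC4 (0.356), and for S100A9 FOSL1 (0.292), STAB1 (0.355) and FN1 (0.435). S100A12 lay closest to OSBPL3 (0.182), SMPDL3B (0.244) and PADI4 (0.253), S100A8 to EGR1 (0.331), CATIP (0.336) and NPTX1 (0.342), CSF3R to PADI4 (0.214), MYH9 (0.223) and AKNA (0.224), and ALOX5 to SMPDL3B (0.259), CXCR1 (0.263) and PADI4 (0.274). PADI4, which citrullinates histones in human neutrophils, was thus among the closest 3 for S100A12, CSF3R and ALOX5. LTF had no close neighbour, with CAMP, the cathelicidin of the same granules, nearest at 0.657. MPO lay closest to BUB1B (0.229), BUB1 (0.262) and SSX2IP (0.262), of which BUB1B and BUB1 act at the mitotic spindle checkpoint, and ELANE to ACVRL1 (0.158), SNORD34 (0.183) and HMOX1 (0.185). These are descriptions over libraries that share their time and depth, with no test.

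Among the members the closest pair was S100A12 and ALOX5, at 0.289, and the most distant was AQP9 and LTF, at 1.83. S100A8 and S100A9, whose proteins form 1 complex, lay 0.675 apart, farther than S100A8 from S100A12 (0.360) or S100A9 from AQP9 (0.526).

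Markers of other blood cells differed between the groups at the same times. Over all genes tested edgeR called 6.73% at 24 h and 1.60% at 5 h, and DESeq2 11.9% and 3.42%. At 24 h all 10 B cell markers fell with irradiation, with a summed level of 59.3 to 78.1 CPM in irradiated and 405 to 498 CPM in untreated libraries. The NK and cytotoxic markers fell for 5 of 8 (152 to 224.5 CPM summed in irradiated, 393 to 461 in untreated libraries) and the T cell markers for 3 of 12 (363 to 469 in irradiated, 588 to 646.5 in untreated libraries). Platelet markers rose for 3 of 9 (108 to 136 CPM in irradiated, 50.5 to 67.2 in untreated libraries). At an unadjusted p below 0.05 in edgeR, in either direction, the NK, T cell and platelet lists had 6, 10 and 7 genes. DESeq2 called 6, 6 and 3 of them. Monocyte and macrophage markers were called higher for 2 and lower for 2 of 13, with a summed level of 3198 to 3723 CPM in irradiated and 2377 to 2997 in untreated libraries. No measured marker of these lists was at 0 in a whole group. At 5 h the monocyte sums overlapped, at 2444 to 3115 CPM in irradiated and 2378 to 3171 in untreated libraries, with 0 of 12 called by edgeR, 4 at an unadjusted p below 0.05 and 2 by DESeq2. The B cell sums at 5 h did not overlap, at 190 to 253 CPM in irradiated and 302.5 to 368 in untreated libraries. Of the 10 B cell markers edgeR called 1 at 5 h, with 9 at an unadjusted p below 0.05 and 6 called by DESeq2. With the replicate block at 5 h, B cell markers were lower for 9 of 10, T cell markers for 6 of 12 and NK and cytotoxic markers for 6 of 8, and monocyte and macrophage markers were higher for 4 and lower for 4 of 12. The block called 20.5% of all genes tested at 5 h, in either direction. The eosinophil and basophil, erythroid, and stromal and endothelial lists overlapped in their sums between irradiated and untreated libraries at 24 h, with 0 of 7, 0 of 5 and 2 of 7 called (0, 3 and 3 at an unadjusted p below 0.05 in edgeR, and 0, 1 and 2 by DESeq2). The part of these differences in the members' values was not tested.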

How the data were processed

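Total RNA of 12 blood libraries was prepared with a stranded kit after removal of ribosomal RNA, per the labels' protocols. The authors deposited, per gene and library, raw read counts and FPKM values, per the file headers, in a table for each time, with gene coordinates of the assembly L_africana_Jul_2009, printed here as given. Not given in the sources used here are aligner, counter and strand setting. The file headers give lengths only as total bases. They are taken here to be coding lengths, since nearly all are multiples of 3. The other deposited columns were not used, and 0 further columns of counts or FPKM per library remained.

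The counts were tested with edgeR 4.0.16 in R 4.3.3 (TMM scaling, filterByExpr, quasi-likelihood F-test, Benjamini-Hochberg adjustment over all genes tested), with only the compared groups in each fit and all 12 libraries for the interaction. DESeq2 1.42.0, other filters, other scaling, a fit of all 12 libraries, the replicate number as a block and leaving out each library were the alternatives. Figures were drawn with matplotlib 3.10.9 in Python 3.11.15. The script was tested on simulated data. No 2 libraries of a group were duplicates (chi-square per gene at least 17.4).

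At 5 h, deviations from the group means of libraries with the same number correlated at 0.37, 0.33 and 0.57 over 12969 genes, each above 0.1, which is where the pairing at 5 h comes from. The labels do not say what a number shares. All 9 genes, the 3 genes of a list with the smallest p and the called genes of a list at irradiation, and the 3 most alike genes of each member were named. The members and lists were chosen with earlier results of these data known. No sequences of these genes were used here.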

Additional observations from a re-analysis of the deposited data

Results flagged for a closer look

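The response of AQP9 to irradiation was flagged because it differed between the times in a test of the difference itself. The effect at 24 h minus the effect at 5 h was 1.67 ± 0.28 on the log2 scale (edgeR interaction over 12 libraries, adjusted p = 0.012). At 24 h AQP9 had 9.18 ± 1.90 CPM in irradiated and 3.43 ± 0.71 CPM in untreated libraries, and at 5 h it had 28.1 ± 3.63 CPM in irradiated and 33.1 ± 6.52 CPM in untreated libraries (SD, n = 3 each).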

How the results depend on the processing

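At 5 h the main test called 207 genes and 1 member, DESeq2 called 444 and 2, the replicate block 2655 and 5, and a fit of all 12 libraries 0 members. Leaving out 1 library gave 86 to 191 genes and 0 to 2 members. At 24 h the main test called 968 genes and 1 member, DESeq2 1715 and 4, all 12 libraries in 1 fit 1670 and 4, and leaving out 1 library 293 to 1061 genes and 0 to 4 members. The replicate block at 24 h, where libraries of the same number did not all deviate together (correlations 0.12, -0.40 and 0.65), called 707 genes and 2 members, with LTF added at -1.01 (adjusted p = 0.046). Across numbers at 24 h, irradiated replicate 1 correlated at 0.49 with untreated replicate 2, and irradiated replicate 2 at 0.43 with untreated replicate 1. The remaining pairs of unlike number ran from -0.51 to -0.18. A block that sets libraries together in that crossed way was not tested. For the interaction the main test called 134 genes, DESeq2 354, the replicate block 139 and fits without 1 library 76 to 168, with AQP9 called each time. The cause of these shifts was not tested.

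Between the times the member counts stayed at 6 in untreated blood and at 5 or 6 in irradiated blood when 1 library was left out, and the replicate block called 8101 genes in untreated and 8888 in irradiated blood. Directions turned only for members that were not called. Leaving out 1 library gave CSF3R -0.029 to 0.26, LTF -0.63 to 0.94 and ALOX5 -0.25 to 0.015 at 5 h, ELANE -0.057 to 0.48 at 24 h, and LTF -1.22 to 0.19 in irradiated and -0.23 to 1.56 in untreated blood between the times. For the interaction it gave ELANE -0.33 to 0.21, with 0.0011 by DESeq2 and 0.0089 with the stricter filter, and CSF3R -0.13 to 0.33. MPO, CSF3R, LTF and ELANE had under 100 counts in several libraries, which limits what these libraries can resolve for them.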
